A study of Mus musculus with 2 samples.

Results

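The regions described here are the intergenic ATAC-seq peaks of mouse regulatory T (Treg) cells that lie within 50 kb of a transcription start site (TSS). A peak was a member when the authors' annotation placed it in the distal intergenic class and its distance to the TSS of the assigned gene was at most 50 kb. Of 54120 peaks in both lists together, 9119 were members (16.8%). The cKO list held 2862 members among 19680 peaks (14.5%), and the WT list held 6257 among 34440 (18.2%). The annotation gives peaks nearer than 3 kb to the promoter class, so the closest members lay 3007 bp from a TSS in the cKO list.

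Cells of the cKO group came from Foxp3cre/+ TKTfl/fl mice, in which cells that express Cre lose TKT (transketolase, of the non-oxidative pentose phosphate pathway). Cells of the WT group came from Foxp3cre/+ mice. Cre was thus present in both groups, driven by the Foxp3 gene, which marks Treg cells. The animals were C57BL/6 females aged 7 weeks that the labels call chimeric, and their spleen and lymph node gave the sorted CD4+CD25+YFP+ cells. There was 1 library per group, and whether cells of several animals were pooled is not given in the sources used here. With no replicate, differences between the groups were described without any p-value. Depth is unknown. In these bulk samples, fewer cells with an open region and less opening per cell cannot be told apart, and a region without a peak may still lie below the caller's threshold.

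ATAC-seq uses the Tn5 transposase to insert adapters where DNA is accessible, so peaks mark open chromatin. Open intergenic regions often hold enhancers, which bind transcription factors and can act on a promoter over long distances, in either direction, and not always on the nearest gene. In T cells, AP-1, RUNX, ETS and TCF-1 family factors are known to bind such elements. The assigned gene is therefore only the authors' nearest-gene label. As a check of the sorted population, 5 of 6 Treg markers and 5 of 6 T cell markers had peaks of any class in each list, all but Tnfrsf18 and Cd3g. B cell, myeloid, and CD8 T and NK markers had peaks for 2 of 5 genes each in both lists, and erythroid and stromal markers for 2 of 5 in the cKO list and 3 of 5 in the WT list. In longer lists of such markers, any peak was found for 4 of 8 B cell, 7 of 10 myeloid and 4 of 8 CD8 T and NK genes. The same held for 6 of 8 erythroid and stromal genes and for 12 of 13 core Treg genes. The share over all genes is not given here, so these counts do not measure purity.

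Some members coincide with gene starts that the authors' annotation did not use. Shown here are the 250 bases before 4 RefSeq starts (GRCm38.p6, the build mm10) that lie inside strong members of both lists, 5′ to 3′ on the gene's strand. Capitals mark matches, on either strand, to 5 motifs searched: CCGGAAG for ETS, GGGCGG for the GC box, TGTGGTT for RUNX, TGANTCA for AP-1 and CCAAT for the CCAAT box. The first 2 sequences hold matches and the last 2 hold none of these letters.
Zfp869: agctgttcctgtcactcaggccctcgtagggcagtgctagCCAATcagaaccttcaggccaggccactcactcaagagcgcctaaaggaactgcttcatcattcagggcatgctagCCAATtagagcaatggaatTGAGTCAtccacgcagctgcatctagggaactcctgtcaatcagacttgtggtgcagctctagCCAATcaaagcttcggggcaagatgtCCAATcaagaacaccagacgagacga
Gm36395: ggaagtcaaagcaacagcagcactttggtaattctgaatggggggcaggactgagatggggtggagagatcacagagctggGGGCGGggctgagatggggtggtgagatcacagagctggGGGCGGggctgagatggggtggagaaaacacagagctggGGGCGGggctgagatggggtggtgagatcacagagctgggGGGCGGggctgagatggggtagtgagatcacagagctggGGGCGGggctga
Gm38882: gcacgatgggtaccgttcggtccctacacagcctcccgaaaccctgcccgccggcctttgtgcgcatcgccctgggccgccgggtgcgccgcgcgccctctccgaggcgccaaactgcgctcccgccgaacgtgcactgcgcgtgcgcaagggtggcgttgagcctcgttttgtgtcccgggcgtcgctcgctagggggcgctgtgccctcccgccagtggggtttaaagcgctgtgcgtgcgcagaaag
Gm51701: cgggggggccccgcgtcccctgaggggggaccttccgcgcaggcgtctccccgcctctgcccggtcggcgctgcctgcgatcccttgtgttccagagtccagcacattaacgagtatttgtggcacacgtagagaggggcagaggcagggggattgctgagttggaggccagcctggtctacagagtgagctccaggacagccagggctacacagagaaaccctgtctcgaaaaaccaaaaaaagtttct

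The Zfp869 window (chr8:69716903-69717152, minus strand) precedes a RefSeq start of Zfp869, which encodes a zinc finger protein. RefSeq places the whole gene at 69705137 to 69717068, so 166 of the 250 bases lie inside it. It holds 4 CCAAT matches and 1 AP-1 match. The member there was 818 bp wide at percentile 99.6 of the cKO list, and 1065 bp wide at percentile 99.9 of the WT list. Percentiles run from 0 to 100, with 100 for the highest score within a list, and lists of different length show no change by their ranks. The Gm36395 window (chr11:33931878-33932127, plus strand) belongs to a long non-coding RNA gene and holds 5 GC box matches, each in a near-identical copy of a repeated stretch. Its member was assigned by the authors to Kcnmb1, a potassium channel subunit, and stood at percentile 83.6 in the cKO list and 88.5 in the WT list. The Gm38882 window (chr6:117879383-117879632, plus strand) has 70.4% G and C and 34 CpG dinucleotides. It lies in a member assigned to Zfp239, at percentile 98.8 in the cKO list and 99.5 in the WT list. The Gm51701 window (chr9:123924898-123925147, plus strand) lies in a member assigned to Ccr1, a receptor for inflammatory chemokines, at percentile 82.6 in the cKO list and 76.9 in the WT list.

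Nearly all cKO members had a WT counterpart, whereas fewer than 1 in 2 WT members had a cKO counterpart. A WT peak overlapped 2722 of the 2862 cKO members by at least 1 bp (95.1%, Wilson 95% interval 94.3 to 95.8). A cKO peak overlapped 2705 of the 6257 WT members (43.2%, 42.0 to 44.5). Over all peaks the shares were 97.6% in the cKO list and 56.1% in the WT list. The WT list is the longer one. With it cut by score to the length of the cKO list, 74.5% of cKO members and 72.8% of WT members were overlapped. Intervals cover counting error only, since neighbouring peaks are not independent. The partner of an overlapped peak was itself a member for 2691 of 2722 cKO members and 2695 of 2705 WT members. Within these pairs the score percentiles of the lists had a Spearman correlation of 0.816 over 2722 cKO members. It is given as a description because pairs share a locus and its base composition. The median percentile over these pairs was 35.7 in the cKO list and 61.25 in the WT list. The WT percentile was the lower one in 283 pairs (10.4%), so a lower cKO percentile was common to most pairs. Of all WT peaks, 6.68% in the lowest and 99.5% in the highest of 10 equal score bins had a cKO partner. Shared peaks therefore take high WT percentiles by the make-up of that list, and the shift measures no change in opening.

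Members stood between promoters and introns in the WT list before score was considered, and close to introns after it. Of WT peaks, 43.2% of members, 39.8% of intron peaks, 40.0% of intergenic peaks beyond 50 kb and 74.3% of promoter peaks were overlapped. In the cKO list the shares were 95.1%, 95.5%, 94.9% and 99.2% in the same order. The raw difference of WT members minus introns was 3.39 points (Newcombe 95% interval 1.80 to 4.98). When peaks were compared inside 10 equal score bins of the WT list, that difference was -1.34 points (-2.58 to -0.0822), and its interval included 0 under 4 of 8 other settings (a 50% overlap, the upper scores, equal numbers of peaks and a width minimum). Within score and 4 width bins together, an alternative chosen after seeing the data, it was -0.159 points (-1.31 to 1.02). Against peaks beyond 50 kb, the difference within score bins was -1.06 points (-3.94 to 1.87), and against promoters it was -6.93 points (-8.20 to -5.67). In the cKO list, members minus introns within score bins came to -0.866 points (-1.89 to 0.102) and members minus promoters to -2.55 points (-3.53 to -1.70).

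The members' rank within each list was below that of promoter peaks and above that of introns. Their median percentile was 33.8 among cKO peaks and 40.0 among WT peaks. Introns had medians of 29.8 in the cKO list and 35.05 in the WT list, and promoter peaks 64.1 and 71.2 in the same order. Overlap increased with rank. In the cKO list, 78.1% of the 465 members of the lowest score bin were overlapped, and 102 of the 140 members without a WT partner lay in that bin. Among the 884 cKO members of bins 6 to 10, 0 lacked a WT partner, which allows a share of up to 0.339% by the limit of 3 counts. In the WT list the overlapped share was 6.96% of 762 members in bin 1, 44.3% in bin 5, 80.7% in bin 7 and 98.1% of 162 in bin 10.

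**Figure D1:**
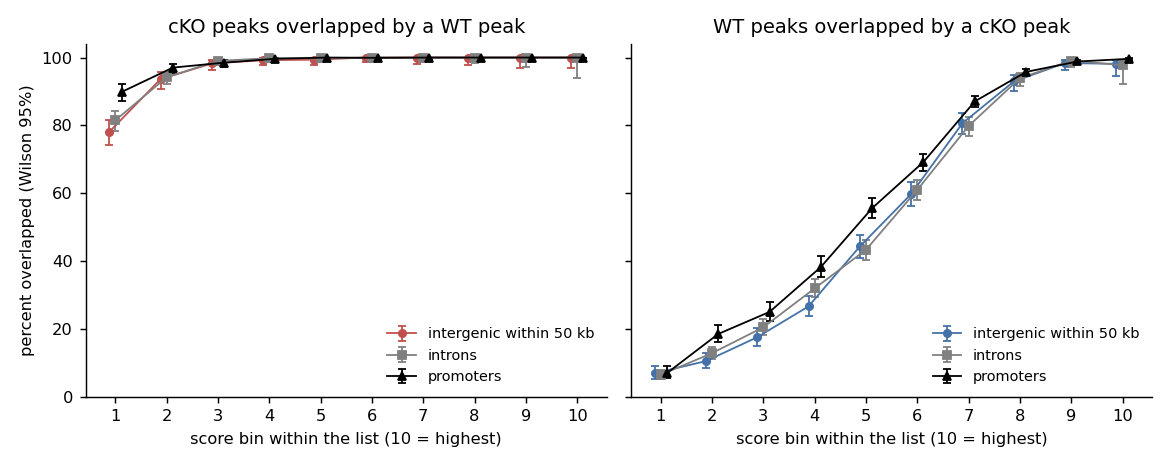
Percent of peaks overlapped by at least 1 bp by the other list (vertical axis) in 10 equal score bins of the cKO list and of the WT list (horizontal axis, 10 is the highest), for members (circles), introns (squares) and promoters (triangles), with bars for Wilson 95% intervals. WT members ran between 6.96% in bin 1 and 98.4% in bin 9, and cKO members started at 78.1%.

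Wider members were more often overlapped, as higher-ranked ones were. The median width was 858 bp in the cKO list (order-statistic 95% interval 840 to 873) and 841 bp in the WT list (825 to 854). Among cKO members, overlapped ones had a median of 871.5 bp and the others 592.5 bp. Among WT members these medians were 1137 bp and 646 bp. The narrowest peak of the cKO list measured 465 bp, and 745 WT members (11.9%) were narrower than that, of which 27 were overlapped. Below 500 bp, 80.2% of 131 cKO members and 4.76% of 988 WT members were overlapped. At 1500 bp or more the shares were 99.6% of 280 cKO members and 88.6% of 598 WT members. Width and score percentile are themselves related, with Spearman correlations of 0.512 across cKO members and 0.613 across WT members, so width and score are not separate measures. Within pairs the median width was 871.5 bp on the cKO side and 1141.5 bp on the WT side.

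**Figure D2:**
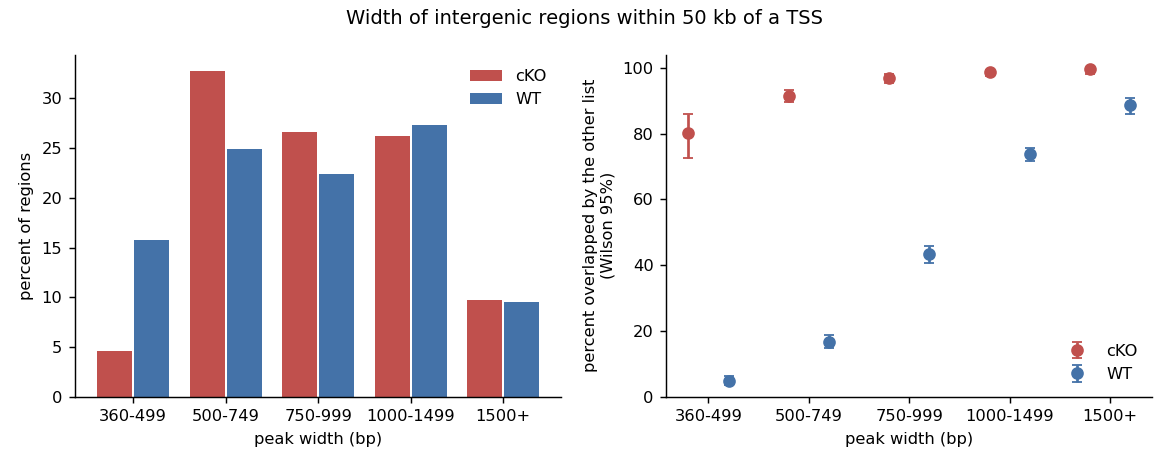
Percent of members in 5 classes of width in bp (left, bars for the cKO and WT lists) and percent overlapped by the other list in each class (right, points with Wilson 95% intervals). Overlap rose with width, up to 99.6% of cKO members and 88.6% of WT members in the widest class.

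Members lay more often upstream than downstream of the assigned TSS, and the share was near equal in both lists. Upstream members numbered 1758 in the cKO list (61.4%, 59.6 to 63.2) and 3888 in the WT list (62.1%, 60.9 to 63.3). Beyond 50 kb the upstream share was 52.3% in each list. Between 3 and 5 kb, 69.8% of cKO members and 72.9% of WT members were upstream, and between 40 and 50 kb the shares were 54.1% and 50.8%. The annotation itself bears on these shares, because an intergenic peak downstream of a TSS has to lie past the end of the gene. The genes of downstream members were short, with a median length of 1508 bp in the cKO list and 1673 bp in the WT list, against 8703 bp and 9551 bp for the genes of upstream members. The term predicted gene models is used here for symbols of Gm and a number, symbols that end in Rik, and symbols in the form of a sequence identifier. They were sorted by symbol alone. Predicted gene models made up 65.8% of downstream and 47.1% of upstream assignments in the cKO list, and 64.0% and 43.8% in the WT list. With members assigned to predicted models set aside, 71.1% of cKO members and 71.9% of WT members were upstream. The interval of the difference between the sides in overlapped share included 0: within score bins, upstream minus downstream members came to 0.300 points (-1.20 to 2.10) in the cKO list and -0.990 points (-2.95 to 0.957) in the WT list.

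**Figure D3:**
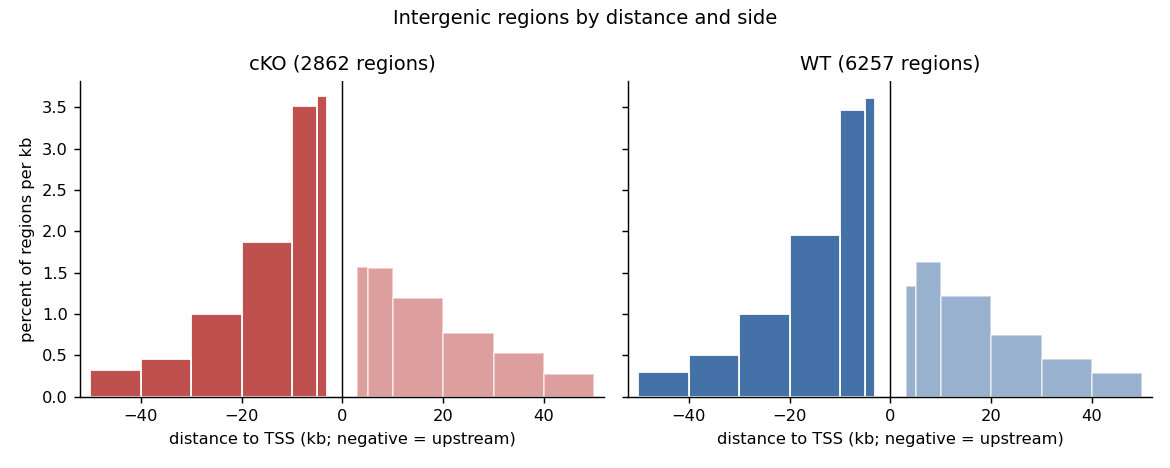
Percent of members per kb of signed distance to the assigned TSS, with negative values upstream, for the cKO and WT lists. Both lists were densest near the TSS, with an upstream share of 61.4% in the cKO list and 62.1% in the WT list.

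The median distance was 13823 bp in the cKO list and 13769 bp in the WT list. Overlapped shares by distance ran between 92.9% and 96.1% of cKO members and between 41.8% and 45.8% of WT members. Just inside the limit, at 45 to 50 kb, 94.4% of 71 cKO members and 39.4% of 160 WT members were overlapped. Just outside it, at 50 to 55 kb, 94.7% of 57 cKO peaks and 41.3% of 138 WT peaks were.

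Most assigned genes had a single member. The cKO members were assigned to 2264 symbols and the WT members to 4340, of which 1197 and 2132 were predicted models. A single member was held by 80.7% of cKO symbols and 71.3% of WT symbols, and 3 or more by 114 cKO symbols and 412 WT symbols. Symbols with members in both lists numbered 2168, which is 95.8% of the cKO symbols and 50.0% of the WT symbols. The highest number in the WT list belonged to Rny3, a small RNA gene, with 7 cKO members, all overlapped, and 10 WT members, 7 of them overlapped. In the cKO list 5830428M24Rik, a Rik symbol counted here with the predicted models, also had 7 members. Small RNA genes and predicted models are passed over in the rankings that follow. Within score bins, members of named genes minus members of predicted models differed in overlapped share by 1.22 points (-0.472 to 2.84) in the cKO list and by -3.09 points (-4.99 to -1.19) in the WT list.

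**Figure D4:**
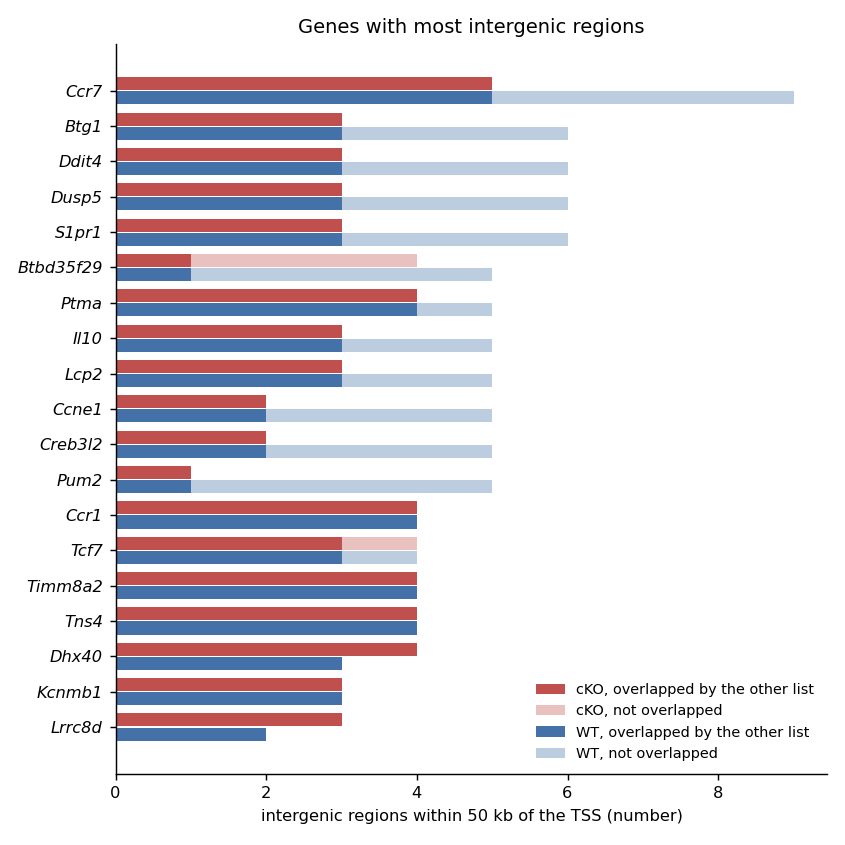
Number of members (horizontal axis) assigned to 19 named genes, with the cKO bar above the WT bar and the part not overlapped by the other list in a lighter shade. Ccr7 had 5 cKO members and 9 WT members.

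Ccr7, the chemokine receptor that brings T cells into lymph nodes, had the most members among named genes. Its 5 cKO members were all overlapped, and 5 of its 9 WT members were. The shared regions lay 30503 and 22368 bp downstream and 7764, 15527 and 34122 bp upstream of the TSS in cKO coordinates. The cKO members stood at percentiles 27.9, 58.6, 56.1, 63.2 and 55.4 in that order, and their WT partners at 56.8, 59.1, 68.7, 70.1 and 64.4. The 4 WT members without a cKO peak lay at percentiles 1.70, 19.2, 25.3 and 46.0 of the WT list, all below the 5 shared ones. S1pr1, the sphingosine-1-phosphate receptor that lets lymphocytes leave lymphoid organs, had 3 cKO members and 6 WT members, all downstream of its TSS. Its strongest member lay 31742 bp from the TSS at percentile 86.8 of the cKO list, and 31697 bp at percentile 81.5 of the WT list.

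Tcf7 encodes TCF-1, a transcription factor of naive and memory T cells. It had 4 members in each list, all upstream, of which 3 were overlapped in each. The shared regions stood at percentiles 33.3, 75.3 and 72.6 in the cKO list and 60.7, 82.9 and 78.4 in the WT list. Each list had 1 region of its own, at chr11:52309586-52310296 in the cKO list (percentile 16.5) and at chr11:52318462-52318997 in the WT list (percentile 48.4). Cxcr4, the receptor for the chemokine CXCL12, had 3 cKO members, all overlapped, and 4 WT members. Its strongest region, about 22166 bp upstream, stood at percentile 88.2 in the cKO list and 89.0 in the WT list. A region 12910 bp upstream stood at percentile 42.6 in the cKO list, and its WT partner 13206 bp upstream at 75.9.

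Btg1, an anti-proliferative factor linked to quiescence, had 3 cKO members and 6 WT members. Its strongest region lay 45958 bp downstream at percentile 78.4 in the cKO list, and 45867 bp downstream at percentile 75.9 in the WT list. Ddit4, an inhibitor of the mTORC1 kinase complex, had 3 cKO members, all upstream, and 6 WT members. The 3 upstream WT members of Ddit4 were overlapped and the 3 downstream ones were not. Dusp5, a phosphatase of ERK kinases, had 3 cKO members and 6 WT members, and Lcp2, the T cell receptor adaptor SLP-76, had 3 and 5, all upstream.

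For other genes all or nearly all WT members were overlapped. Tns4, Ccr1, Timm8a2 and Ptma were named by the rule of most overlapped WT members, so their overlapped counts were high by choice. The share over all WT members was 43.2%. Tns4, a tensin of adhesion sites, lies next to Ccr7 and had 4 members in each list, all upstream and all overlapped. Ccr1 also had 4 in each list, 27208 to 42452 bp downstream in the cKO list, at percentiles 2.60 to 82.6 there and 31.9 to 76.9 in the WT list. Timm8a2, a mitochondrial import protein, had 4 in each list, and Kcnmb1 had 3 in each. Ptma, the nuclear protein prothymosin alpha, had 4 cKO members and 5 WT members, and the single WT member with no cKO peak was its narrowest at 532 bp. Lrrc8d, a subunit of volume-regulated anion channels, had 3 cKO members and 2 WT members.

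Over all WT members, 56.8% had no cKO peak, given here beside the counts of the next 3 genes. Ccne1, which encodes cyclin E1 of the G1 to S transition, had 2 cKO members and 5 WT members. Its strongest region, 21358 bp downstream, stood at percentile 95.7 in the cKO list and 96.9 in the WT list. The 3 WT members of Ccne1 without a cKO peak were all upstream and ranked lower, at percentiles 31.8, 29.4 and 21.8. Pum2, an RNA-binding repressor of translation, had 1 cKO member at percentile 92.9 and 5 WT members. The overlapped WT member stood at 96.8, and the 4 with no cKO peak at 54.3, 27.2, 41.9 and 10.7. Pum2 was also named by the rule of most WT members without a cKO peak, so that count was high by choice. Creb3l2, a transcription factor anchored in the endoplasmic reticulum, had 2 cKO members and 5 WT members, 3 of them with no cKO peak.

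**Figure D5:**
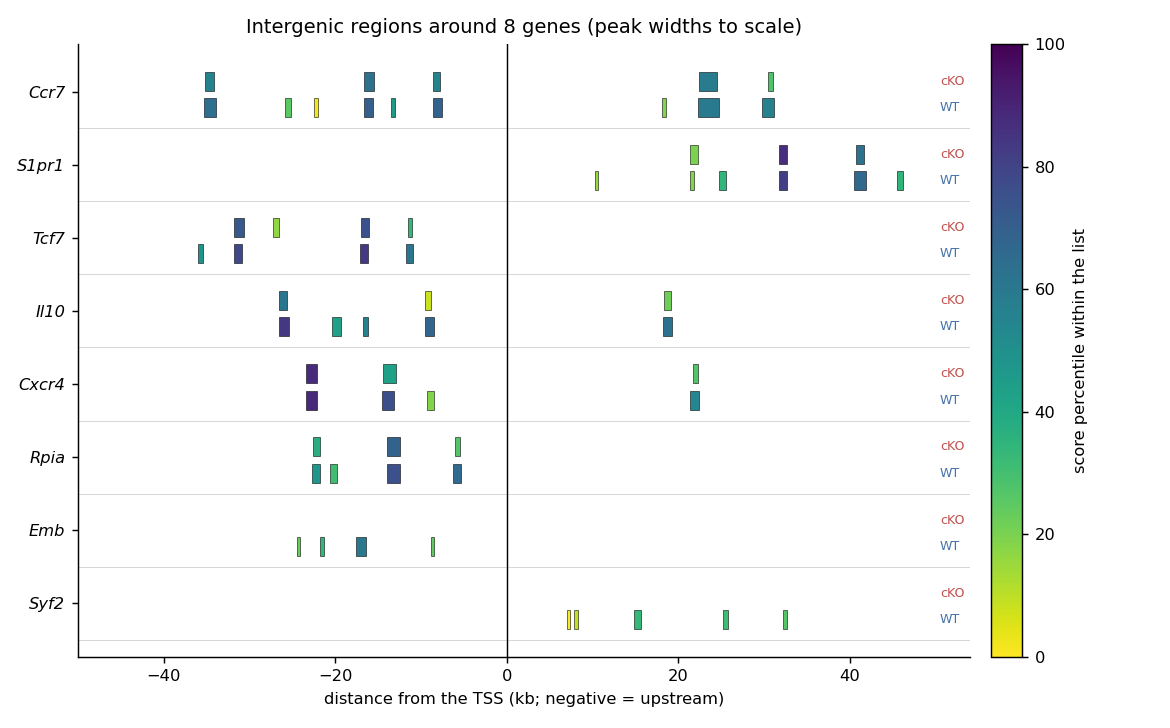
Members of 8 named genes by distance to the TSS in kb, with the cKO row above the WT row for each gene, widths to scale and colour for the score percentile within the list. Ccr7, S1pr1, Tcf7, Il10, Cxcr4 and Rpia had members in both lists, and Emb and Syf2 had 0 members in the cKO list, against 4 and 5 in the WT list.

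Among 13 core Treg genes, 4 had cKO members and 5 had WT members. All 6 cKO members of these genes and 6 of their 11 WT members were overlapped, at a median percentile of 25.8 in the cKO list and 55.9 in the WT list, beside 33.8 and 40.0 for all members. Il10, an anti-inflammatory cytokine of Treg cells, held 3 of those cKO members and 5 of those WT members. Its members 25634 and 8883 bp upstream and 18386 bp downstream stood at percentiles 60.9, 8.17 and 21.97 of the cKO list. Their WT partners stood at 83.7, 67.6 and 62.1 of the WT list. Over all 2722 cKO members with a WT partner, the medians were 35.7 in the cKO list and 61.25 in the WT list. Il2ra, which encodes the receptor chain CD25, had 1 wide member in each list about 5458 bp upstream, of 2254 bp at percentile 65.6 in the cKO list and of 2458 bp at percentile 59.0 in the WT list. Ctla4, an inhibitory receptor, had a shared member at percentile 9.62 in the cKO list and 41.5 in the WT list, and Ikzf2, the transcription factor Helios, at 29.5 and 66.2. Nt5e, the ectonucleotidase CD73, had 0 cKO members and 1 WT member at percentile 9.57.

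The other lists of T cell genes gave counts on either side of the 43.2% of all WT members. Among genes of Treg identity and suppression, all 10 cKO members and 10 of 29 WT members (34.5%, 19.9 to 52.7) were overlapped. Cd83, a surface protein of activated lymphocytes, had 3 cKO members and 5 WT members, the strongest at percentile 83.7 in the cKO list and 80.7 in the WT list. Pdcd1, the inhibitory receptor PD-1, had 2 cKO members and 3 WT members. Among cytokines and their receptors, all 13 cKO members and 12 of 19 WT members (63.2%, 41.0 to 80.9) were overlapped. Il21r, the IL-21 receptor, had 3 members in each list, all overlapped, and Ifng, encoding interferon gamma, had 2 cKO members and 3 WT members. The strongest Ifng member, 21229 bp upstream, stood at percentile 91.6 in the cKO list and 96.8 in the WT list. For the naive and central state, 16 of 17 cKO members and 15 of 29 WT members were overlapped. T cell transcription factors had 9 of 9 and 9 of 19, T cell receptor signalling 9 of 9 and 9 of 20, chemokine receptors and adhesion 9 of 9 and 9 of 19, and survival genes 12 of 13 and 12 of 24 in the cKO and WT lists. Fos, a subunit of AP-1, had 2 members in each list, the strongest at percentile 94.6 in the cKO list and 98.2 in the WT list. Cd44, an adhesion receptor of activated T cells, had 1 cKO member and 4 WT members, and Mcl1, an anti-apoptotic BCL-2 family protein, had 2 and 5. The intervals of the WT shares of all these lists include 43.2%.

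Because TKT acts in the pentose phosphate pathway, genes of that pathway, glycolysis and the TCA cycle were listed. Of 34 such genes, 5 had cKO members and 7 had WT members. Overlap was found for 7 of 8 cKO members and for 7 of 11 WT members (63.6%, 35.4 to 84.8). Rpia, the ribose-5-phosphate isomerase of the pentose phosphate pathway, had 3 cKO members and 4 WT members, all upstream. The shared ones stood at percentiles 27.0, 68.4 and 37.04 in the cKO list, and 65.9, 75.5 and 47.6 in the WT list. The remaining WT member lay 19753 bp upstream at percentile 30.7. Slc2a3, the glucose transporter GLUT3, had 1 cKO member and 2 WT members. Of the longer marker lists, B cell markers had 1 member in each list and myeloid markers 2 in each. CD8 T and NK markers had 0 in the cKO list and 1 in the WT list, and erythroid and stromal markers 0 in both. The part of such cells in the results was not tested.

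Some genes had members in 1 list alone or split between the lists. Over all WT members, 56.8% had no cKO peak. Syf2, Emb, Pum2, Ccr7 and Btbd35f29 were named by the rule of most WT members without a cKO peak, so their counts of such members were high by choice. Syf2, a splicing factor gene, had 0 cKO members and 5 WT members at percentiles of 0.752 to 33.3 of the WT list. Those 5 lay in score bins 1, 3 and 4, where 6.96%, 17.6% and 26.7% of WT members were overlapped. Emb, encoding the cell adhesion protein embigin, had 0 cKO members and 4 WT members. The widest of these, at chr13:117202708-117203815, had 1108 bp and percentile 60.0, and the other 3 measured 421 to 443 bp, narrower than any cKO peak. Dhx40, a helicase gene, had 4 cKO members and 3 WT members, because a single WT region of 5681 bp covered 2 cKO members of 2267 and 1838 bp. Counts of members per gene therefore depend also on how peaks were joined.

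The strongest members were mostly present in both lists. The top cKO member, assigned to the predicted model Gm39473, had rank 10 of the cKO list, and its WT partner had rank 22 of the WT list, with widths of 615 and 617 bp. Tmem125, a transmembrane protein gene, had the next highest cKO member, at rank 18. Eef2k, the kinase of translation elongation factor 2, had a member at rank 176 of the cKO list, 6693 bp upstream of its TSS. The top WT member was a 455-bp peak assigned to Gm11668 at rank 10 with no cKO peak over it, and another of 473 bp, assigned to Gm25352, had rank 34, also without a cKO peak. Of the 470 WT members in the upper 2 score bins, 8 had no cKO partner; their median width was 647 bp, and that of the other members in these bins 1301 bp. Among named genes these were Fam71b at percentile 87.5, Lrfn3 at 84.4 and Capg at 82.7. The Capg region (chr6:72538329-72539162) lies within the RefSeq gene Capg, an actin-capping protein gene, which starts at 72538282. Of the 140 cKO members without a WT partner, the strongest reached percentile 46.5, and among named genes Pold4, a DNA polymerase delta subunit, at 37.7 and Apba2 at 30.3.

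The X chromosome had a lower share of overlapped cKO members than each of the numbered chromosomes, which ran between 90.8% and 98.6%. On X, 62 of 75 cKO members (82.7%, 72.6 to 89.6) and 62 of 146 WT members (42.5%, 34.7 to 50.6) were overlapped. Btbd35f29, of a multicopy family, held 4 of these cKO members and 5 of these WT members, with 1 overlapped in each. Near-identical copies can split or share reads, so these positions are uncertain. X-linked cKO members also ranked lower, at a median percentile of 24.8 against 33.8 for all cKO members. In the lowest 2 score bins lay 44.0% of them, against 30.5% of all cKO members. The share on X was not compared within score bins.

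Members also lay in runs, here members of the same list no farther apart than the stitching distance commonly used in calling super-enhancers. Runs of at least 2 held 802 cKO members (28.0%) and 2690 WT members (43.0%), and runs of 5 or more numbered 8 in the cKO list and 46 in the WT list. The WT list held more members, and runs were not compared at equal numbers of members. WT members in runs of 3 or more were overlapped in 49.8%, against 40.5% of single WT members, and within score bins the difference was 4.77 points (2.22 to 7.37). The same difference among cKO members was -0.715 points (-5.57 to 1.34). At the Cd28, Ctla4 and Icos cluster on chromosome 1, which encodes costimulatory and inhibitory receptors, 4 cKO members and 10 WT members lay between Cd28 and Ctla4. Between Ctla4 and Icos there were 3 and 5, and within 100 kb past Icos 1 and 7. Over the 3 intervals, all 8 cKO members and 8 of 22 WT members were overlapped, beside 95.1% and 43.2% of all members of these lists.

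Members were also grouped by whether the assigned gene had a promoter peak. For named genes, 97.5% of cKO members and 43.5% of WT members were overlapped where both lists had a promoter peak, and 90.8% and 36.0% where neither had. Within score bins of the WT list, the share where both had a promoter peak minus the share where neither had was 0.158 points (-2.98 to 3.47).

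RefSeq places part of the members inside genes. A RefSeq gene overlapped 675 cKO members (23.6%) and 1309 WT members (20.9%), and a protein-coding one 193 and 366. The window of 250 bases before to 50 after a RefSeq start was touched by 108 cKO members (3.77%) and 183 WT members (2.92%). Of these, 98.1% in the cKO list and 64.5% in the WT list (57.3 to 71.1) were overlapped, and 42.6% of the other WT members were. The WT members at these windows also ranked higher, with a median percentile of 52.3 against 39.6 for the other WT members. Within score bins, members at a window minus other members came to 2.21 points (-6.31 to 3.59) in the cKO list and 8.60 points (2.78 to 13.6) in the WT list. The 250 bases before the start differed in letters from those under promoter-class peaks. Of the 119 windows under cKO members, the 206 under WT members and all 32851 windows, the RUNX motif occurred in 9.24%, 9.71% and 4.40%, and under promoter-class peaks in 3.21% and 3.24%. The AP-1 motif occurred in 9.24%, 9.71% and 6.75% of the same 3 sets, and in 3.42% of windows under cKO promoter peaks and 3.72% under WT ones. The GC box occurred in 20.2%, 19.4% and 32.7%, and in 62.4% of windows under cKO promoter peaks and 61.4% under WT ones. The ETS motif occurred in 5.88%, 4.85% and 6.91%, and under cKO and WT promoter peaks in 16.3% and 15.2%. The CCAAT box occurred in 27.7%, 29.1% and 33.8%, and under cKO and WT promoter peaks in 37.04% and 36.04%. Windows under members held a median of 5 CpG dinucleotides in each list, against 17 under promoter-class peaks. The 11 cKO windows and 20 WT windows with a RUNX match are few, and a match is a description of letters, not of binding.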

How the data were processed

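The authors deposited 1 peak list per library, so peaks were called per library. The submitters' processing notes name mm10 as the build and list MACS2, BWA, FastQC and Trimmomatic; for versions, caller settings, duplicate removal and any Tn5 shift, nothing is stated in the sources used here. Each peak had a score, deposited by the authors with no further name in the file headers, and a width, class, assigned gene and distance to the TSS (negative upstream). The score was used only to rank peaks within a list. Read totals were not used here, so depth is unknown.

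Members, gene lists and the naming rule were chosen with earlier results of these data known. The rule took the named genes with most members, most overlapped and most non-overlapped members, the strongest members with and without a partner, core Treg genes with a member, and up to 2 genes per list; predicted models and small RNA genes were passed over. Gm39473, Gm11668, Gm25352, the RefSeq genes shown by sequence, the runs and the X chromosome were chosen after their values were seen. Shares have Wilson 95% intervals, differences Newcombe intervals, medians order-statistic intervals. Overlap meant at least 1 bp, computed in Python 3.11.15 with pandas 2.3.3 and scipy 1.17.1, and checked on the files against bedtools 2.31.1; the code was also tested on simulated data. Gaps within score bins are means over 10 equal bins weighted by members. RefSeq genes and windows are of GRCm38.p6. Alternatives were a 50% reciprocal overlap, an upper score filter, lists of equal length, a width minimum, limits of 25 and 100 kb, no predicted models, autosomes only, and 2 added later. The motif search over the members themselves was not run, as no genome was used here.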

Additional observations from a re-analysis of the deposited data

How the results depend on the processing

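Over 100 alternatives, 72 values moved by less than their interval or 1.5 times, and 28 moved by more. The difference of WT members minus intergenic peaks beyond 50 kb within score bins had an interval that included 0 in every setting run. With each list's upper 50% by score it was 1.85 points (-2.88 to 6.25), the opposite sign to -1.06 points. WT members minus introns was the only other difference rerun under the alternatives, and it kept its sign. With at least 50% of both peaks overlapping, the overlapped share was 85.3% of cKO members and 38.8% of WT members. Restricted to each list's upper 50% by score, there were 884 cKO members and 2327 WT members, overlapped in 98.5% and 37.2%, with median widths of 1111 and 1125 bp and median percentiles of 37.7 and 32.0. With the lists cut to equal numbers of peaks, there were 2897 WT members, 74.5% of cKO members and 72.8% of WT members were overlapped, and the WT members' median width was 1079 bp and median percentile 33.2. With peaks at least as wide as the narrowest cKO peak, 48.6% of WT members were overlapped, at a median width of 908 bp. With a 25 kb limit, 64.1% of cKO members and 64.7% of WT members were upstream, and the WT median percentile was 41.3. Without predicted gene models, 1308 cKO members and 3038 WT members were left, 71.1% and 71.9% of them upstream; 40.9% of the WT members were overlapped, at a median width of 824.5 bp, and members minus introns within score bins came to -2.94 points (-4.48 to -1.35). That difference had intervals that included 0 with a 50% overlap (-0.794 points), with the upper 50% by score (-1.29 points), with equal numbers of peaks (-0.612 points) and with the width minimum (-0.877 points), and within score and width bins, added later (-0.159 points). Without members that overlap a RefSeq gene, an alternative chosen after seeing the data, 41.5% of WT members were overlapped. The 50% overlap changed the overlap rule alone, and the score and width bins kept all peaks. The other settings given above left fewer peaks or fewer members by construction. Causes of the moves were not tested. No paired analysis was possible because there is only a single library in each group, so no library could be left out either. The planned motif search over the members was not run. Unknown depth limits every absence of a peak.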

Other observations

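Further long runs differed in how much of them the lists shared. Assigned to Gm24169 and Cetn4 on chromosome 3, 6 WT members between 37271325 and 37303307 had no cKO overlap, at percentiles of 1.67 to 42.1. On chromosome 4, 5 members in each list were assigned to Gm13009 and Gm26001, all overlapped, at median percentiles of 22.6 in the cKO list and 73.3 in the WT list. Assigned to Rpia and Eif2ak3 on chromosome 6, 4 of 5 WT members were overlapped, up to percentile 92.8. These runs were chosen after their values were seen. Over all members, 95.1% in the cKO list and 43.2% in the WT list were overlapped.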
